A study of Mus musculus with 289 samples.

Results

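The 44 genes described here are those of the cornified envelope and of terminal epidermal differentiation. They were chosen by symbol from a fixed list of suprabasal keratins, envelope precursors, transglutaminases, Ly6 family proteins, barrier lipid enzymes, proteases and related genes, with no use of their levels. Earlier results of these data were known when they were chosen. All 44 were found among the 15019 genes of the deposited table. The table holds 289 single keratinocytes from mouse tail skin, sequenced by Smart-seq2 on 4 plates, and 274 of them had at least 1000 genes detected and at most 50% mitochondrial counts.

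The cells came from adult female mice of a mixed CBA and C57BL/6 background that carried Lrig1-EGFP-ires-CreERT2 and a Rosa26 tdTomato reporter behind a floxed stop. Lrig1 marks stem cells of the upper hair follicle, so after hydroxytamoxifen the reporter labelled Lrig1-expressing cells and their descendants, and all 4 plates share that labelling. Vehicle (acetone) was applied to the skin of one group, with 70 cells passing on replicate 1 and 55 on replicate 2. The other group received PRT4165, which blocks Ring1A and Ring1B, the ubiquitin ligases of the Polycomb complex PRC1, with 72 and 77 cells passing. Both groups carry the time label t0, and all cells the population label L1. How many animals a plate held is not in the labels, so the plate is the replicate. With 2 plates a group, p-values measure the spread between plates, which may be technical in part. In either replicate an effect of the plate and one of the treatment cannot be told apart. The treatment labels also hold PR9 on both vehicle plates and PR12 on both PRT4165 plates, with no explanation. Whatever PR9 and PR12 stand for is shared by the plates of a group and cannot be told apart from the treatment.

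The cornified envelope is the cross-linked protein shell that takes the place of the plasma membrane in a dying keratinocyte. Cells leaving the basal layer replace Krt5 and Krt14 with Krt1 and Krt10, then load envelope precursors such as involucrin, loricrin and the small proline-rich proteins, which transglutaminases join and to which barrier lipids are attached. Filaggrin and its processing proteases appear in the granular layer. The upper part of the hair follicle, next to the skin surface, also cornifies, and Krt79 marks its infundibulum and the sebaceous duct.

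The proximal promoters of 6 of the genes are shown because they come from the 2 gene blocks and the keratin on which the order of onset turns. Krtdap and Sbsn lie in the block on chromosome 7, Sprr1a, Ivl and Flg lie in the complex on chromosome 3, and Krt10 is the keratin to which the other genes are compared. Each run holds 270 bases on the gene's own strand, 250 before the annotated start and the 20 that follow, from RefSeq on GRCm38.p6. Capitals mark TATAAA, the TATA box, searched on the strand shown only, and TGANTCA, the AP-1 motif, searched on both strands. The windows were chr7:30787655-30787924, plus strand, for Krtdap, chr7:30751221-30751490, plus strand, for Sbsn, and chr11:99389345-99389614, minus strand, for Krt10. On chromosome 3 they were chr3:92485862-92486131, minus strand, for Sprr1a, chr3:92573716-92573985, minus strand, for Ivl, and chr3:93273296-93273565, plus strand, for Flg.
Krtdap: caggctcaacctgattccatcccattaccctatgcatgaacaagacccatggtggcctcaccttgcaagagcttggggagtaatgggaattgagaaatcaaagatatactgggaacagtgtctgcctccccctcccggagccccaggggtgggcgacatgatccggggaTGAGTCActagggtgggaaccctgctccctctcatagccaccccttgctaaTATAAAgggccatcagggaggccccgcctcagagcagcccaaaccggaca
Sbsn: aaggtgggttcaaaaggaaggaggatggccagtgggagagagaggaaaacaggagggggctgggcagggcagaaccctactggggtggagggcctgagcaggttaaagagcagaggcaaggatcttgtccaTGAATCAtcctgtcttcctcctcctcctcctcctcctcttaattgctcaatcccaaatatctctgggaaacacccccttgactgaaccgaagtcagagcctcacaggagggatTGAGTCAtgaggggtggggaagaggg
Krt10: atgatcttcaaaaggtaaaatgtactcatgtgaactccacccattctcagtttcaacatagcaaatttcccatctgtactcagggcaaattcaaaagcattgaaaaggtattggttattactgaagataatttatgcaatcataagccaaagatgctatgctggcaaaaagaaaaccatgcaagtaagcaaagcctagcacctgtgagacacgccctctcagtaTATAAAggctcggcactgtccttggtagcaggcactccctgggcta
Sprr1a: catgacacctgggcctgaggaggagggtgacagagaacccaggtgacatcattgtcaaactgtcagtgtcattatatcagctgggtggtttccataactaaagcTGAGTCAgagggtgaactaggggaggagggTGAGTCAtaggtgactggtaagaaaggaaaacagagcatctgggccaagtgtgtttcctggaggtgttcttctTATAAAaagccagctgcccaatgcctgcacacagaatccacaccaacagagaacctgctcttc
Ivl: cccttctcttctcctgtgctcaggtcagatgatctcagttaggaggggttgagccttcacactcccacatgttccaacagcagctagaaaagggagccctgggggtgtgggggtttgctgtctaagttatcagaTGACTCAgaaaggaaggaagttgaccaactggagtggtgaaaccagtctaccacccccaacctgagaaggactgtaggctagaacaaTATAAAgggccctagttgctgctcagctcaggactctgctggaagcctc
Flg: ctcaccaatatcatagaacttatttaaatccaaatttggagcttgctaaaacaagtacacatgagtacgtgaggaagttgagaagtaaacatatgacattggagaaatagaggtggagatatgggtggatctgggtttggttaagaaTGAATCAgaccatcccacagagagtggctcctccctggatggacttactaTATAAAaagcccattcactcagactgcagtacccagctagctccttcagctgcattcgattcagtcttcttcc

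TATAAA lay 30 bases before the start of Krtdap, 26 before that of Krt10, 29 before that of Ivl, 43 before that of Sprr1a and 53 before that of Flg, counted from the motif's first base. The Sbsn window did not hold this box. The AP-1 motif occurred once in the windows of Krtdap, Ivl and Flg, at 81, 116 and 103 bases before the start. Sprr1a carried it at 116 bases and once more farther upstream, and Sbsn at 119 and 6 bases, and the Krt10 window did not hold these letters. RefSeq promoters matched 33 of the 44 genes, with 39 windows. TATAAA was present in 25.6% of these windows against 7.91% of all 32851 windows of the same length, TGANTCA in 33.3% against 7.23%, and TTGCNNAA (a C/EBP motif, both strands) in 30.8% against 10.1%. TATAAA stood 20 to 50 bases before the start in 9 of the 33 genes, and in 2.32% of all windows. A match describes the letters of a window and is not evidence of binding.

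Summed counts per plate were 25761756 and 34714003 for vehicle and 38461239 and 41592716 for PRT4165, and single cells ranged from 9796 to 3029822. The median cell of vehicle replicate 1 held 141985 counts, against 429383 to 538754 on the other 3 plates. For this reason detection was scored after thinning each cell to 50000 non-mitochondrial counts, which 246 cells could supply (59, 54, 61 and 72). Intervals and floors cover counting error only. The keratinocyte label was checked against defining markers. At least 1 of the 12 basal genes was detected in 245 of the 246 cells, and Krt79 in 46.7%. Melanocyte, fibroblast and Merkel cell genes were detected in 22, 23 and 18 cells, and immune genes, of which 2 of 5 were in the table, in 6. At least 1 sebaceous gene was detected in 213 cells and at least 1 inner root sheath gene in 42. The endothelial gene Pecam1 had counts in 99.6% of cells, while Cdh5 and Kdr were not among the genes of the table. Levels are given as CPM, the counts of a gene per 1000000 counts of the plate's summed cells. Where 4 values stand in a row, they are vehicle replicates 1 and 2, then PRT4165 replicates 1 and 2.

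Differentiation transcripts were abundant and widespread in these cells, but unevenly so. The median cell had 9.5 of the 44 genes and the range was 1 to 37. Of the 44, 10 were detected in at least 50% of cells, 17 in 10 to 50% and 17 in under 10%. The envelope genes of the granular layer were among the rare ones. The genes' summed level was 29923, 22396, 15073 and 33993 CPM, and the PRT4165 plates were the lowest and the highest.

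The secreted suprabasal proteins were the most widely detected. Dmkn, which encodes dermokine, was detected in 90.7% of cells (223 of 246, 95% Wilson interval 86.4 to 93.7%), with 1464, 1415, 886 and 972 CPM. Sbsn, which encodes suprabasin, was detected in 74.8% of cells, with 482, 572, 221 and 366 CPM. Krtdap, the keratinocyte differentiation-associated protein, was detected in 74.4%, with 7085, 5811, 3599.9 and 6320.4 CPM. Per kilobase of longest transcript, Krtdap had the highest level of the 44, 12136 CPM per kb as the mean of the 4 plates, ahead of Sprr1a (7459.7), Krt10 (2311), Calm4 (2038) and Ly6d (1851). The deposited counts are estimates that split reads between transcripts. For Krtdap 18.7% of the values above 0 were not whole, against 4.93% over the 44 genes. The share was higher still for Calm4 (28.8%), Gsdma (26.1%), Abca12 (34.2%), Lce1a1 (50%) and Lce1b (60%).

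Of the suprabasal keratins, Krt10 was the common one. It was detected in 62.6% of the 246 cells (95% Wilson interval 56.4 to 68.4%), with 5522, 2262, 4251 and 7326 CPM. Its partner Krt1 was detected in 18.3%, with 353, 590.2, 390.0 and 1350.2 CPM. On every plate Krt10 was the more abundant of the pair per length, by 23.4, 5.73, 16.3 and 8.12 times. Krt2, a keratin of the upper suprabasal layers, was detected in 9.76% of cells, with 432, 30.4, 309 and 574 CPM. Krt77, a type II keratin related to Krt1, was detected in 6.5%, with 12.8, 7.75, 3.48 and 23.1 CPM. Krt2 differed most between the vehicle plates, and Krt77 between the PRT4165 plates. Basal keratins were present beside them: Krt5 at 275, 535, 288 and 248 CPM, Krt14 at 977, 2362, 1022 and 1173 CPM, and Krt15, a keratin of basal follicle cells, at 987, 907, 964 and 748 CPM. For Krt14, 80.4% of the values above 0 were not whole. Krt79 stood at 3446, 1913, 1820.0 and 1207 CPM.

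The calmodulin-like proteins bind calcium, the signal that drives keratinocyte differentiation. Calm4 was detected in 57.3% of cells, with 1565, 2041, 1037 and 2833 CPM. Calml3 was detected in 66.7% and varied little between plates, with 191.4, 199.3, 232 and 191.5 CPM.

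Among envelope precursors and scaffold proteins, Sprr1a stood apart. This small proline-rich precursor was detected in 28.9% of cells (71 of 246, 95% Wilson interval 23.6 to 34.8%), with 8457, 5577, 1384 and 8632 CPM, and its paralog Sprr1b in 5.69%, with 339, 0.49, 26.4 and 72.5 CPM. PRT4165 replicate 1 was the low plate for Sprr1a and vehicle replicate 2 for Sprr1b. Ivl (involucrin, an early scaffold of the envelope) was detected in 19.1% of cells and was even across plates, with 42.5, 51.5, 53 and 38.6 CPM. Cnfn (cornifelin) stood at 39.8, 97.2, 18.3 and 16.9 CPM. The scaffold proteins envoplakin and periplakin, which line the membrane first, differed in reach: Ppl was detected in 51.2% of cells and Evpl in 23.2%. Scel, which encodes sciellin, was detected in 50%.

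The granular-layer precursors were scarce. Lor, which encodes loricrin, the major protein of the mature envelope, was detected in 4.47% of cells (11 of 246, 95% Wilson interval 2.51 to 7.83%), with 1.79, 0.807, 0.026 and 30.4 CPM. It was in 0 of 61 cells of PRT4165 replicate 1, which allows a share of up to 4.92%. Flg, which encodes filaggrin, was detected in 5.69% of cells (14 of 246, 95% Wilson interval 3.42 to 9.32%), with 25.9, 1.01, 1.46 and 27.5 CPM, and Flg2 in 3.25%, with 200.8, 8.07, 10.3 and 155.1 CPM. For Lor, Flg and Flg2, vehicle replicate 1 and PRT4165 replicate 2 were the high plates. Of the late cornified envelope genes, Lce1a1, Lce1b and Lce1m were detected in 2.03, 1.63 and 0.813% of cells, and Lce1m had counts on vehicle replicate 1 only.

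The enzymes that build the envelope and its lipids were detected in a minority of cells, except Fabp5. The cross-linking transglutaminase Tgm1 had 3.18, 3.17, 1.46 and 0.817 CPM and Tgm3 had 5.74, 4.55, 5.64 and 4.78 CPM, with detection in 5.69% and 8.13% of cells. Tgm5 was detected in 12.2%. Fabp5, a fatty acid-binding protein, was detected in 56.9%, with 555, 559, 612 and 1208 CPM. Abca12, the transporter that loads lipids into lamellar granules, was detected in 24.4%, with 62.3, 19.8, 25.5 and 20.5 CPM. Enzymes of the ceramide coat were detected in few cells. The lipoxygenases Aloxe3 and Alox12b were each detected in 2.85% of cells, and the ceramide synthase Cers3 in 8.94%. Sult2b1, which sulfates cholesterol, was detected in 23.6%, Them5 in 43.5% and the phospholipase Pla2g4e in 4.47%.

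Ly6 family proteins ranged from common to rare. Ly6d, a surface protein, was detected in 78.9% of cells, with 1386, 1704, 934 and 1483 CPM. Ly6g6c was detected in 41.9%, with 902, 567, 386 and 566 CPM, and Lypd3 in 39.8%, with 37.7, 43.8, 30.3 and 28.2 CPM. The secreted members, which act on nicotinic acetylcholine receptors, were rarer. Slurp1 had 30.7, 20.4, 54.8 and 58.2 CPM and Slurp2 had 80.8, 55.4, 73.6 and 210.3 CPM, with detection in 12.6% and 17.9% of cells.

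Proteases, corneodesmosome and other genes differed in level between plates. Cdsn, which encodes corneodesmosin, the glue of the outermost cells, had 90.1, 147.1, 75.8 and 37.8 CPM. Asprv1, a protease that processes profilaggrin, had 12.3, 5.47, 21.9 and 521 CPM, and Casp14, the caspase of cornification, 10.1, 24.5, 12 and 12.9 CPM. Hopx, a homeodomain cofactor found both in differentiated cells and in follicle stem cells, had 12.3, 33.7, 21 and 17.4 CPM and was detected in 37%. Gsdma (gasdermin A) was detected in 14.6%. Exons of 7 of the 44 genes overlap a gene on the other strand (among them Krt10, Tgm1, Lypd3, Slurp1 and Hopx) and those of Sbsn and Pla2g4e one on the same strand, so their reads could in part be the neighbour's.

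**Figure D1:**
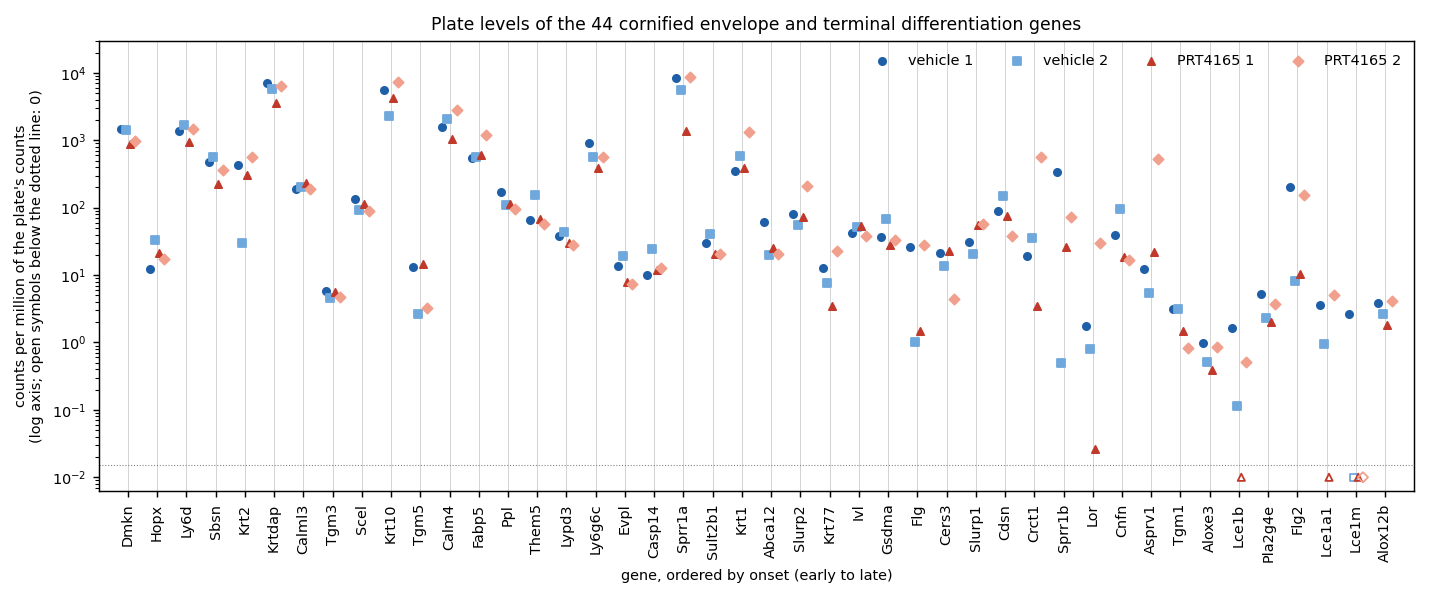
Level of each of the 44 genes, in CPM on a log axis, with 1 point per plate (2 vehicle, 2 PRT4165) and genes ordered by onset, early to late. Krtdap, Sprr1a and Krt10 stand above 1000 CPM on every plate, while Lor, Flg, Asprv1 and Crct1 spread over a wide range between plates of one group.

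Krt10 was often seen without the keratin it pairs with. Of the thinned cells with Krt10, 44 had Krt1 (28.6%), 21 had Krt2 and 15 had Krt77. At least 1 of these 3 was present in 67 (43.5%), and 87 had none (56.5%). The cells with none held less Krt10: the median was 23 thinned counts, against 571 in the cells with a partner. At such counts a scarcer partner can be missed, so its absence at this depth does not show that it was not expressed. Of those 87 cells, 86 had Krt5 or Krt79. In the other direction the keratins were nested. Krt10 was detected in 44 of the 45 cells with Krt1, in 21 of the 24 with Krt2 and in 15 of the 16 with Krt77.

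Other genes were nested in the same way. Krt10 was detected in 67 of the 71 cells with Sprr1a and in 28 of the 28 with Cnfn. Slurp2 was detected in 27 of the 31 cells with Slurp1. The 8 cells with Flg2 held most of the other late genes: all 8 had Sprr1a and Crct1, an envelope-complex gene, 7 had Asprv1, 6 had Lor and 6 had Flg. Krt2 was found in 0 of the 14 cells with Flg, but it was in 9.76% of all cells, so few such cells could be seen. Krt10 was detected in 95 of the 115 cells with the follicle keratin Krt79. Krt79 was in 19 of the 45 cells with Krt1 (42.2%), close to its share in all cells (46.7%).

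The order of onset was read from the cells themselves, since no time course was measured. For each gene, the median number of the other 43 genes was taken over the cells in which it was detected. A low number places a gene early, and a high number late. A gene found alike in all cells would also score near the median cell (9.5 genes). A low number alone therefore does not show early onset. The places of Hopx, Krt2 and Tgm3 are uncertain for this reason, and by plate Krt2 stood at 23, 7.5, 10.5 and 11. Dmkn and Hopx had the lowest numbers (10 others), followed by Ly6d, Sbsn and Krt2 (11) and Krtdap and Calml3 (12). Scel stood at 13, Krt10 and Tgm5 at 13.5, Calm4, Fabp5, Ppl and Them5 at 14, and Lypd3 at 15. These genes differed in how often they were present in cells with few differentiation transcripts. In cells with 0 to 5 of the other genes, Dmkn was detected in 78.4%, Ly6d in 55.9%, Krt10 in 34.4%, Calm4 in 14.3% and Lypd3 in 7.69%.

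Ly6g6c, Evpl and Casp14 followed at 16, Krt1, Sprr1a and Sult2b1 at 17, Abca12 at 18.5, Slurp2 at 19, Krt77 at 19.5 and Ivl, Flg and Gsdma at 20. Next came Cers3 at 20.5. Lor, Slurp1, Cdsn, Crct1 and Sprr1b stood at 21, Cnfn at 21.5, Asprv1 at 22, Tgm1 and Aloxe3 at 23, Lce1b at 23.5 and Pla2g4e at 24. Flg2 and Lce1a1 stood at 25, Lce1m at 25.5 and Alox12b came last at 28. The 12 genes classed as granular by textbook knowledge were Lor, Flg, Flg2, Crct1, Lce1a1, Lce1b, Lce1m, Casp14, Asprv1, Cdsn, Cnfn and Tgm3. Of these, 11 came after Krt10, and the exception was Tgm3 at 12.5.

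Shares by bin describe the steps in more detail. The bins use the same number of other genes as the onset, so they are no separate check of the order. Cells were binned by how many of the other 43 genes they held, 0 to 5, 6 to 11, 12 to 17 and 18 or more. Across these bins Dmkn was detected in 78.4, 92.3, 98.1 and 100% of cells, Krt10 in 34.4, 48.3, 89.3 and 100%, and Sprr1a in 1.92, 10.6, 42.4 and 85.4%. Dmkn was thus near its ceiling from the second bin, Krt10 climbed through the middle bins and Sprr1a climbed through the last 2. Ivl was detected in 1.92, 8.42, 16.7 and 64.4%, Lor in 0, 2.15, 5.45 and 12.8% and Flg in 1.96, 0, 8.93 and 17%. Krt1 was detected in 5.77, 4.3, 32.8 and 44.2%. Some genes changed less. Hopx was detected in 26.7, 41.4, 40 and 38.6% and Krt2 in 7.41, 9.78, 9.26 and 13%. Tgm3, in 3.92, 7.53, 9.09 and 12.8%, and Tgm5, in 7.41, 10.1, 10.7 and 23.4%, were low but higher in each bin.

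**Figure D2:**
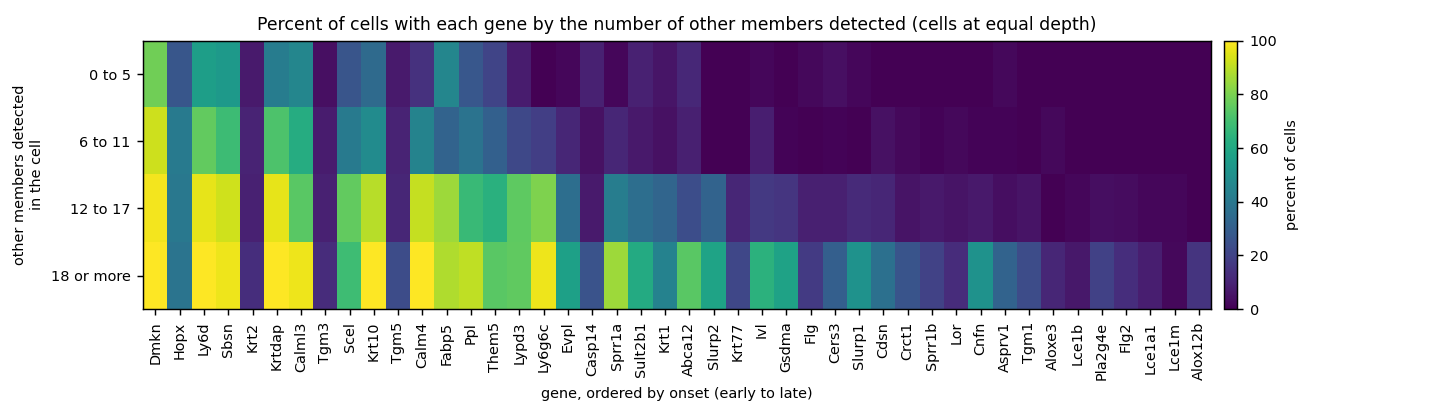
Percent of thinned cells in which each gene was detected, in 4 bins of cells by the number of the other 43 genes detected, with genes ordered by onset. Early genes such as Dmkn are present from the first bins, all 7 cells with Alox12b and 6 of the 8 with Flg2 are in the last bin, and Hopx and Krt2 change little from the second bin on.

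The order held between plates as a description. For the 30 genes with enough cells on each plate, Spearman's rho between the orders of 2 plates was 0.607 to 0.836. The order also followed how often a gene was detected (rho −0.814) and, less closely, its level per kb (−0.497 over 42 genes), so rare genes stood late by this measure. It followed a score from 12 basal genes that are not among the 44 more closely still. The median basal score of the cells with a gene fell as the gene's onset rose (rho −0.938). These correlations are across genes of the same cells, and genes are not independent replicates.

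The 2 gene blocks whose promoters are printed above differed in onset. In order along the chromosome, Lor, Sprr1b, Sprr1a, Ivl, Lce1a1, Lce1b, Crct1, Lce1m, Flg2 and Flg, 10 of the 44 genes, lie in 1213 kb of chromosome 3 (GRCm38, 92080271 to 93293686), the epidermal differentiation complex. They were detected in 0.813 to 28.9% of cells and had onsets of 17 to 25.5. Sbsn, Dmkn and Krtdap lie together in 39.6 kb of chromosome 7 (30751471 to 30791097). These 3 were detected in 74.4 to 90.7% of cells and had onsets of 10 to 12, so the 2 blocks did not overlap in either measure.

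Plate levels of many of the genes rested on very few cells. On at least 1 plate, 1 cell gave over 50% of the counts of 26 of the 44 genes. For 7 genes this held on every plate with a count, and for 18 on none. The highest cell gave 72.7, 64.1, 40.7 and 73.5% of a plate's Sprr1a counts, against 37.4, 19.1, 13.1 and 10.6% for Krtdap, 12.8, 28.4, 13.1 and 28.5% for Calm4 and 12.8, 14.7, 13.5 and 11.3% for Ly6d. Ly6d and Calm4 were thus spread over more cells than Sprr1a. Some genes with a low onset number were as concentrated, with 65.1, 44.8, 49.7 and 43.4% for Krt2 and 48.6, 34.2, 71.9 and 82.9% for Tgm3. A single cell held 98.96% of the Flg2 counts of vehicle replicate 1, 85.2% of the Asprv1 counts of PRT4165 replicate 2 and 82.5% of its Crct1 counts.

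The cell with the most counts of the 44 genes gave 35.5, 23.4, 9.40 and 24.9% of all such counts on its plate. On PRT4165 replicate 2 it had 36 of the 44 genes before thinning (26 after it), which made up 33.6% of its counts, with Sprr1a alone at 248105 CPM. It held the highest count of 11 genes on that plate, among them Asprv1, Crct1, Flg2 and Lor. After thinning, the cell with the most genes was on vehicle replicate 1 and had 37 of the 44, 10 of them granular. It lacked Krt2, Krt77, Sprr1b, Tgm3, Tgm5, Aloxe3 and Lce1a1. Without the leading cell of each plate, an alternative chosen after seeing the data, the summed level was 20739, 17897, 14193 and 26214 CPM.

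**Figure D3:**
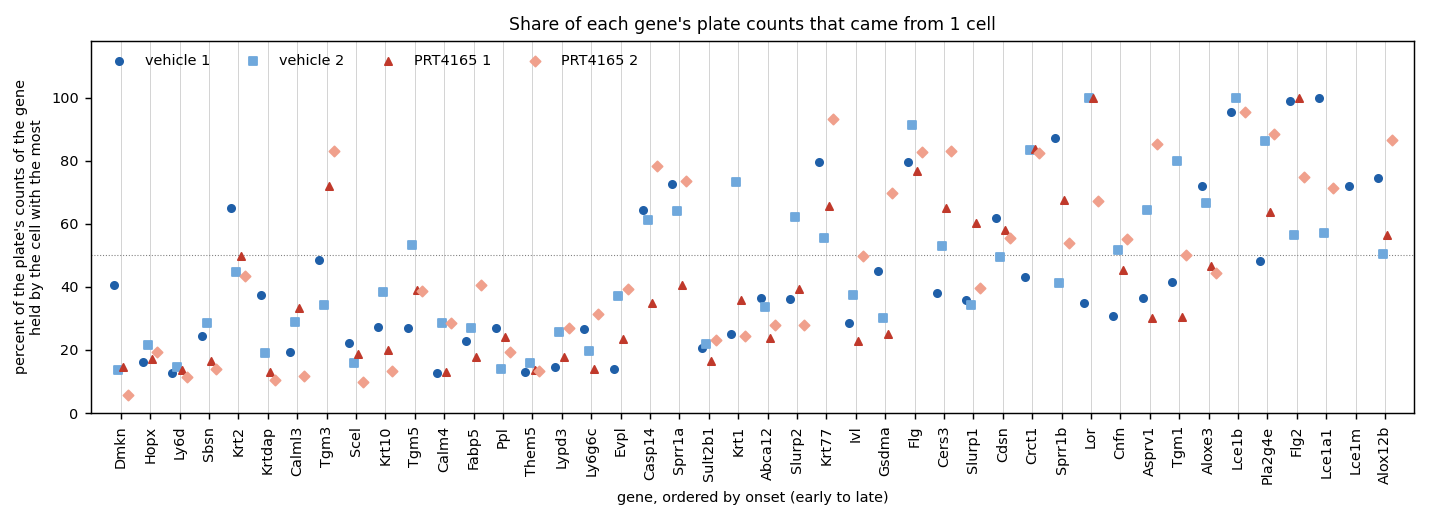
Percent of a plate's counts of each gene that came from its highest cell, with 1 point per plate and genes ordered by onset. Ly6d lies between 11.3 and 14.7% on the 4 plates, Krt2, which stands near Ly6d in this order, between 43.4 and 65.1%, and Flg2 between 56.4 and 100%.

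The first comparison asked whether PRT4165 changed these genes against vehicle. At equal depth some measures per cell overlapped between the groups and others did not, and none could pass a test with 2 plates a group. The median number of the 44 genes per cell was 11, 8, 8 and 10.5, which gave 9.5 ± 2.12 for vehicle and 9.25 ± 1.77 for PRT4165 (SD, n = 2 plates each). The difference of −0.25 was smaller than the spread between plates (exact permutation test, two-sided, p = 1; the smallest possible is 0.33). Within replicate 1 it was −3 and within replicate 2 it was 2.5, so the replicates went opposite ways.

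The share of cells with at least 1 granular gene was 40.7% on vehicle replicate 1 (Wilson 95% interval 29.1 to 53.4%) and 31.5% on replicate 2 (20.7 to 44.7%). In PRT4165 it was 32.8% (22.3 to 45.3%) and 31.9% (22.3 to 43.4%). All 4 intervals overlap, and the difference was −3.71 percentage points (exact permutation p = 1). It was −7.89 in replicate 1 and 0.463 in replicate 2. This value depends on the setting: it was −10.4 with thinning to 20000 counts, −13.0 with thinning to 100000, −10.9 with a threshold of 5 thinned counts, −13.2 with a mitochondrial limit of 25% and −7.07 without thinning. In each of these 5 settings both PRT4165 plates lay below both vehicle plates. A cell with 1 granular gene need not be a granular cell. Tgm3 was detected in 5 basal-low and 9 basal-high cells (defined below), and Casp14 in 11 and 7. Each of the other granular genes was detected in more basal-low than basal-high cells. Cells with 20 or more of the 44 genes numbered 14, 8, 8 and 7, or 19.3% ± 6.30 of vehicle cells and 11.4% ± 2.40 of PRT4165 cells (SD, n = 2), with an exact permutation p of 0.33, the smallest possible. Cells with 3 or more granular genes were 10.2, 7.41, 6.56 and 6.94% of cells, and the 44 genes made up a median of 1.67, 0.985, 0.68 and 0.984% of a cell's thinned counts. In these 3 measures both PRT4165 plates lay below both vehicle plates, in the last by 0.985 against 0.984%.

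**Figure D4:**
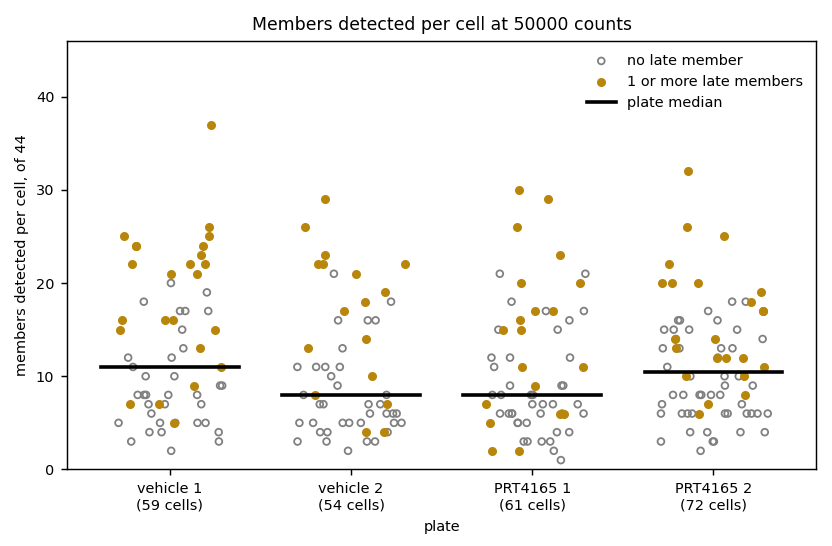
Number of the 44 genes detected in each thinned cell, by plate, with the median of each plate marked. The medians are 11, 8, 8 and 10.5, and every plate reaches from at most 2 genes to at least 29.

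Gene by gene, edgeR's quasi-likelihood test on plate sums called 0 of 12791 genes (0%) at an adjusted p of 0.05, and 0 of the 43 differentiation genes tested, all but Lce1m. An unadjusted p under 0.05 was reached by 630 genes (4.93%) and by 2 of the 43. DESeq2 called 1.36% of all genes and 1 of the 43 (Asprv1, adjusted p = 0.00225). Of the 43, 16 were higher and 27 lower with PRT4165, with a median log2 fold change of −0.30 against −0.02 for all genes tested.

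Asprv1 had the smallest p. Its level was 12.3, 5.47, 21.9 and 521 CPM, so it was higher on both PRT4165 plates and by far on replicate 2. The log2 fold change was 4.97 ± 1.37 (SE), with p = 0.0064 and adjusted p = 0.862 by edgeR. Without PRT4165 replicate 2 it was 1.23, and without the leading cell of each plate it was 2.60, at 12.7, 3.85, 22.7 and 79 CPM. Asprv1 was detected in 10.2, 1.85, 9.84 and 8.33% of thinned cells, and by this measure the groups overlapped. Crct1 was next among the higher genes, at 18.9, 36.1, 3.51 and 570.2 CPM and a log2 fold change of 3.51 ± 1.63 (edgeR adjusted p = 0.997). Without PRT4165 replicate 2 the Crct1 value turned to −2.94. Slurp1 had 1.15 ± 0.64 (edgeR adjusted p = 0.997) and was above both vehicle plates on both PRT4165 plates. With thinned sums it was 0.07, and the share of cells with Slurp1 (16.9, 11.1, 9.84 and 12.5%) overlapped between the groups.

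Of the genes with lower values, Cnfn had the smallest p. Both PRT4165 plates, at 18.3 and 16.9 CPM, lay below both vehicle plates, at 39.8 and 97.2 CPM. The log2 fold change was −1.87 ± 0.66 (SE), with p = 0.0217 and adjusted p = 0.923 by edgeR, and −1.12 without the leading cell of each plate. Cdsn had −1.02 ± 0.58 and Sbsn −0.79 ± 0.48, each with an edgeR adjusted p of 0.997, and neither passed. The keratins overlapped between groups, with 0.56 ± 0.57 for Krt10 and 0.98 ± 0.63 for Krt1.

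Counted by plates alone, 3 of the 44 genes (Slurp1, Asprv1 and Fabp5) lay above both vehicle plates on both PRT4165 plates, where 15.4% of all genes did so. Below both lay 10, against 16.3% of all genes: Sbsn, Dmkn, Tgm1, Evpl, Cnfn, Lypd3, Ly6g6c, Cdsn, Gsdma and Sult2b1. The other 31 overlapped.

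The second comparison asked which of these genes were higher in cells with little basal expression. A basal score was taken from 12 genes that are not among the 44 (Krt5, Krt14, Krt15, Col17a1, 5 further adhesion genes and 3 laminin subunits). On each plate the cells with the lowest scores, 1 in 3, were compared with those with the highest, which gave 81 basal-low and 81 basal-high cells (19, 18, 20 and 24 of each per plate). The score is continuous, and 38 cells lay within 0.1 of a limit. Krt10, Sprr1a and most of the other differentiation genes were higher in basal-low cells on every plate, whereas Dmkn, Calml3, Hopx, Krt2 and Tgm3 differed little or went the other way on some plates.

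Of the 44 genes, 33 were higher in basal-low cells on all 4 plates, 4 on 3, 3 on 2, 3 on 1 and 1 (Tgm3) on none. Among all genes, 5.51% were higher on all 4. By edgeR with plate as a block, 11 of the 39 genes tested passed and all 11 were higher in basal-low cells, where 0.541% of the 10158 genes tested were called higher and 0.699% were called in either direction. At an unadjusted p under 0.05, 32 of the 39 were higher, where 7.62% of all genes were. The median log2 difference was 5.02, against −0.07 for all genes tested. The low-count filter could be passed through the basal-low sums alone, so this count and median describe the genes that passed it and not all 44. Flg, Aloxe3, Lce1a1, Lce1b and Lce1m were not tested.

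The early secreted genes were present in both kinds of cell and differed in amount. Krtdap stood at 13786, 10807, 5538 and 11603 CPM in basal-low cells and at 2383, 2222, 2089 and 1575 CPM in basal-high cells. It was higher in basal-low cells by 2.82 ± 0.30 on the log2 scale (SE, edgeR adjusted p = 0.0191), and the 2 sets of plates did not overlap. Sbsn differed by 2.24 ± 0.33 (edgeR adjusted p = 0.0465), from 711, 828, 364 and 646 CPM to 328.7, 272, 98.1 and 141.5 CPM. Dmkn did not pass, at 0.92 ± 0.30 (edgeR adjusted p = 0.246), and was detected in 77 of the 81 basal-low and 75 of the 81 basal-high cells.

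Calm4, Fabp5 and Ly6g6c also passed. Calm4 stood at 2638, 4082, 1702 and 6224 CPM in basal-low and 282, 559, 336 and 275 CPM in basal-high cells, a log2 difference of 3.76 ± 0.41 (edgeR adjusted p = 0.0191). Fabp5 differed by 3.57 ± 0.53 (edgeR adjusted p = 0.0465), from 1063, 1079, 1022 and 2248 CPM to 44.9, 235, 200.9 and 246 CPM. Ly6g6c differed by 6.12 ± 0.50 (edgeR adjusted p = 0.0112), from 1565, 1293, 839 and 1168 CPM to 51.8, 9.02, 20.7 and 36.8 CPM. Each was higher in basal-low cells on all 4 plates, whereas their relatives Calml3 and Ly6d did not pass (edgeR adjusted p = 0.376 and 0.174). Calml3 stood at 197, 227, 253 and 221 CPM in basal-low and 164.2, 247, 114.3 and 153.95 CPM in basal-high cells, and Ly6d at 2229.7, 2308, 1032 and 2320.0 CPM and 570.5, 1984, 843 and 584 CPM.

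The remaining 6 genes that passed were nearly absent from basal-high cells, so levels and not folds are given. Sprr1a stood at 18856, 13614, 3214 and 21834 CPM in basal-low cells, against 0, 52.2, 0 and 11.4 CPM in basal-high cells (edgeR adjusted p = 0.0497). It was detected in 53 of the 81 basal-low and 5 of the 81 basal-high cells. Slurp2 stood at 161.2, 140.99, 170.8 and 517 CPM, against 0, 0.194, 0 and 7.39 CPM (edgeR adjusted p = 0.0414). Gsdma and Flg2 had 0 counts in all 4 basal-high sums and 57.4, 159.7, 61.8 and 84.8 CPM and 459, 11.6, 23.9 and 393 CPM in basal-low cells. Sprr1a, Slurp2, Crct1 and Asprv1 had 0 counts in 2 or 3 of the basal-high sums. All 6 genes could pass the low-count filter only through the basal-low sums, so their calls are a description. Krtdap, Sbsn, Calm4, Fabp5 and Ly6g6c had counts in every basal-high sum. Crct1 and Asprv1 were as one-sided. Crct1 stood at 41.5, 79, 7.44 and 1442 CPM in basal-low cells and Asprv1 at 18, 4.55, 49.4 and 1315 CPM, with at most 14 counts in any basal-high sum (edgeR adjusted p = 0.0143 and 0.00639). Of the 81 basal-low cells, 13 held each of these 2 genes.

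Krt10 missed the threshold with a large difference. It stood at 11385, 4943, 8384 and 12173 CPM in basal-low and 47.2, 619, 343 and 1047 CPM in basal-high cells, a log2 difference of 5.07 ± 0.94 (edgeR adjusted p = 0.0727), and was detected in 71 and 34 of the 81 cells. Krt1 (edgeR adjusted p = 0.17) was likewise higher on all 4 plates, at 815, 1372, 757 and 3009 CPM against 0, 173.3, 60 and 87.7 CPM. Ivl (edgeR adjusted p = 0.0643) was detected in 35 basal-low and 4 basal-high cells. A few genes were not clearly higher in basal-low cells. Hopx had −0.80 ± 0.76 and Tgm5 0.01 ± 1.03 as log2 differences. Krt2 was detected in 8 cells of each kind. Its level was higher in basal-low cells on 3 plates and lower on PRT4165 replicate 1, at 1.30 ± 1.45 (edgeR adjusted p = 0.775). Tgm3 was lower in basal-low cells on all 4 plates, at 7.09, 1.54, 0.907 and 0.243 CPM against 15.9, 12.7, 18.3 and 0.73 CPM, and did not pass (edgeR adjusted p = 0.527).

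**Figure D5:**
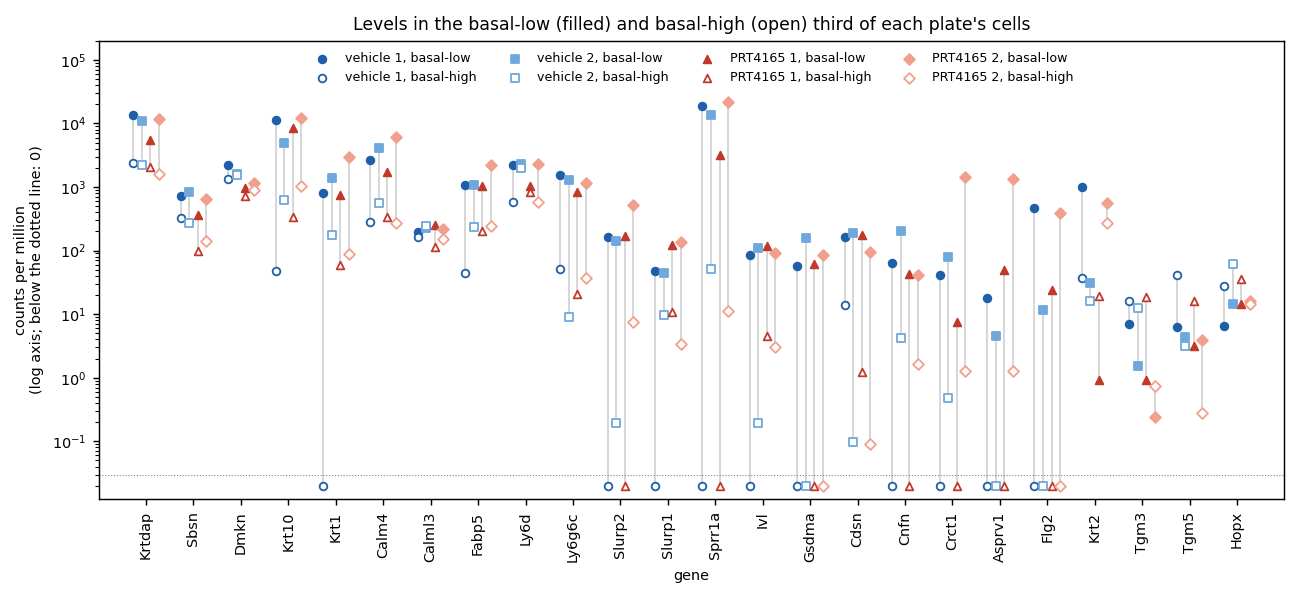
Level of a selection of the 44 genes in basal-low and basal-high cells, in CPM on a log axis, with 1 point per plate and kind of cell. Krtdap and Sprr1a lie higher in basal-low cells on all 4 plates, Dmkn lies close together in both, and Tgm3 lies higher in basal-high cells.

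Other measures moved with the score. Basal-low cells were deeper on each plate, with median counts of 276238, 699183, 663768 and 738860 against 148135, 425397, 390134 and 471492. The number of the 44 genes detected at equal depth followed the basal score within plates (Spearman's rho −0.713, −0.398, −0.548 and −0.514) more than it followed depth (0.203 to 0.295). The 5 upper follicle and duct genes, Krt79 and Cst6 among them, summed to 37397 to 103336 CPM in basal-low and 1410 to 5447 CPM in basal-high cells. Most of the basal-low sum was Cst6, which is also on the further list of differentiation genes given below. As means over the plates, Cst6 had 59782 CPM in basal-low and 1763 CPM in basal-high cells, and Krt79 had 3582 and 163.2 CPM. The 7 sebaceous genes summed to 531, 4078, 1344 and 3777 CPM in basal-low and 702, 170.2, 1133 and 1351 CPM in basal-high cells. On vehicle replicate 1 they were thus lower in basal-low cells. The part of depth, of duct identity and of sebaceous identity in the difference was not tested, and a cell of the duct cannot be told apart here from one of the infundibulum. The number of genes that passed moved with the plates: leaving out vehicle replicate 1 left 1 and leaving out vehicle replicate 2 left 3, and the fits that lacked PRT4165 replicate 1 or 2 gave 0 and 1. The share of all genes called fell with it, to 0.0191, 0.0779, 0 and 0.0875%. The log2 differences moved less, from 2.64 to 3.07 for Krtdap and from 5.69 to 6.38 for Ly6g6c. Without the leading cell of each plate, 3 passed (Krtdap, Calm4 and Ly6g6c), where 0.178% of all genes did, and with each cell thinned to equal depth 15 of 29 tested did, where 1.61% of all genes were called higher. DESeq2 called 29 of the 39, all higher, where 7.47% of all genes were.

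Within basal-low cells, PRT4165 was compared with vehicle again, so that the share of basal cells enters less. None of the 42 genes tested passed by edgeR, and none of all 10348 genes did (0%). At an unadjusted p under 0.05 there were 494 genes (4.77%) and 1 of the 42. That one was Asprv1, at a log2 fold change of 5.88 ± 1.57 (SE, edgeR p = 0.0046). DESeq2 called it alone of the 42, where 1.6% of all genes were called. Asprv1 stood at 18 and 4.55 CPM in vehicle and at 49.4 and 1315 CPM in PRT4165. The higher PRT4165 plate is again the one on which 1 cell held most of its counts.

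Whether the basal-low difference itself depended on treatment was tested as an interaction. EdgeR called 0 of 11972 genes (0%) and 0 of the 42, and DESeq2 called 0 of the 42 and 1.2% of all genes. With no adjustment, 339 genes (2.83%) and 1 of the 42 had a p under 0.05. That one was Ivl, at −4.75 ± 1.47 (SE, edgeR p = 0.0138). Its basal-low levels were 85.2, 109, 117 and 92.3 CPM and its basal-high levels 0, 0.194, 4.54 and 3.01 CPM, and the basal-high sums held 0 and 2 counts of it in vehicle and 40 and 33 in PRT4165.

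The genes whose pattern over cells was most like that of the 44 were named by likeness to the number of the 44 detected per cell. Among 7371 other genes detected in at least 10% of cells, the mean within-plate Spearman's rho was highest for Cst6 (0.753), a cysteine protease inhibitor of the upper epidermis and follicle. Dsg1a (0.717), a desmosomal cadherin, Gltp (0.705), a glycolipid transfer protein, Fam25c (0.691) and the stratum corneum protease Klk7 (0.688) followed. Defb6 and Elovl4, which makes very long fatty acids, each had 0.681, Teddm3 had 0.680, Pinlyp 0.673 and Sdr16c6 0.669. These genes share libraries and depth with the 44, and thinning was to the same number of counts.

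A further list of differentiation genes outside the 44 was examined in the same fits, with 75 of its 96 symbols in the table. Between PRT4165 and vehicle, 0 of 67 tested passed by edgeR or DESeq2. By edgeR, 9 had an unadjusted p under 0.05, 2 higher and 7 lower, where 4.93% of all genes had one. Between basal-low and basal-high cells, 9 of 50 passed, and all 9 were higher in basal-low cells, where 0.541% of all genes were. They were Rptn and Sprr4, of the chromosome 3 complex, the protease inhibitors Cst6 and Spink5, and the lipase Lipm. The others were the lipid enzymes Elovl4 and Sptlc3, the transcription factor Zfp750, and Endou. The low-count filter could be passed through the basal-low sums alone, so this count describes the genes that passed it. As means over the plates, Rptn, Sprr4 and Lipm had 0.0242, 0.312 and 0.811 CPM in basal-high cells, so their calls are a description. The rest had from 2.01 (Elovl4) to 1763 CPM (Cst6) there.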

How the data were processed

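Single cells sorted into 4 plates were sequenced by Smart-seq2 with 75-base single reads. The deposited table holds estimated counts per gene and cell, which the authors made with Salmon 0.13.1 on GRCm38 (mm10) and which are not normalized. Reads shared by several transcripts are split, so 18.3% of values above 0 are not whole. Cells with at least 1000 genes and at most 50% mitochondrial counts were kept (274 of 289). Counts were summed over the cells of a plate, rounded and tested with edgeR 4.0.16 (R 4.3.3) by its quasi-likelihood test (low-count filter, TMM scaling, Benjamini-Hochberg adjustment over all genes tested, two-sided), with all 4 plates in the fit and no block. Plate totals of 25761756 to 41592716 set the precision. Plates were grouped by the treatment label, and exact permutation tests were run on the 4 plate values. Detection used cells thinned once to 50000 counts. Basal-low and basal-high sums (1 in 3 cells each) were fitted with plate as a block.

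The labels' batch tag gives vehicle and PRT4165 plates a shared replicate number. The differences between replicates 1 and 2 of the 2 groups had a correlation of 0.0426 over 12791 genes. The fit with this number as a block was an alternative, as were DESeq2 1.42.0, other scaling, filters, thinning depths and splits, and leaving out each plate. Per-plate values are given for a fixed set of 25 genes, for the 3 higher and the 3 lower genes of smallest p under PRT4165, and for 4 other keratins. The 44 genes and all lists were chosen with earlier results of these data known. The fits were tested on simulated data. No columns of per-sample values were left out.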

Additional observations from a re-analysis of the deposited data

How the results depend on the processing

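The absence of called genes between PRT4165 and vehicle held under every alternative except DESeq2, which called 1 of the 44 (Asprv1) over all cells and 1 in basal-low cells. With the replicate block the counts were 0 and 0, so the pairing changed no call. The differences in genes per cell and in cells with a granular gene, averaged within replicates, were −0.25 and −3.71. These equal the unpaired values by arithmetic and cannot show whether pairing matters. The difference in genes per cell turned positive at 0.5 with thinning to 20000 counts, 0.5 without thinning and 0.25 with a mitochondrial limit of 25%, and ranged from −1.75 to 1.25 with 1 plate left out. The difference in cells with a granular gene ranged from −8.31 to 0.884 percentage points with 1 plate left out, and was 0.884 without vehicle replicate 1. Under the other thinning depths, the 5-count threshold, the stricter mitochondrial limit and no thinning it ran from −7.07 to −13.2. Crct1 ranged from −2.94 to 4.50 (log2) with 1 plate left out, the former without PRT4165 replicate 2. The cause was not tested.

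The number of genes called between basal-low and basal-high cells was 11. It was 29 with DESeq2 (14% of all genes called), 7 with the cells of each plate split at the median score (0.325%), 3 without the leading cell of each plate (chosen after seeing the data, 0.178%), and 0 to 3 with 1 plate left out, where fewer samples enter. All of these were higher in basal-low cells. With thinned sums 15 were called, 9 of them among the 11. For the other differentiation genes the number was 9, and it was 17 with no low-count filter (1.11% of all genes called), 41 with DESeq2 (14%), 18 with thinned sums (2.42%), 1 without the leading cell of each plate (0.178%), and 0 to 3 with 1 plate left out. Of the 12 granular genes, 11 came after Krt10, but only 6 did on PRT4165 replicate 1 alone. On that plate Lor, Lce1a1, Lce1b and Lce1m were not detected in thinned cells, and Casp14 and Tgm3 stood at 14, level with Krt10. Genes at under 10% of cells are limited by the number of cells: with 54 to 72 thinned cells a plate, 0 detected cells still allow a share of several percent. How far depth limits them was not tested.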
